A study of Homo sapiens with 6 samples.

Results

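The 33 genes described here act at DNA double-strand breaks (DSBs), in classical and alternative end joining, in ATM and ATR signaling and in the chromatin response to breaks. They were chosen by name, and all 33 were found among the 57820 genes of each deposited table and among the 19599 genes with enough counts to be tested. RNA-seq was done on 3 WT and 3 ARID1A-KO samples of AID-DivA cells, all untreated. AID-DivA is an osteosarcoma line made from U2OS cells, in which both genotypes carry the AsiSI nuclease and an auxin-inducible degron. The nuclease moves to the nucleus only after 4-hydroxytamoxifen, which these cells did not receive, so the values describe cells without induced breaks. In ARID1A-KO cells, Cas9 with guide RNAs against ARID1A, a DNA-binding subunit of the BAF chromatin remodelling complex, was used to make knockout clones. Which clone or clones were sequenced is not given in the sources used here, so the genotype and a trait of a clone cannot be told apart. The replicates are numbered 3, 4 and 5 in each genotype and are not stated to be separate cultures, so that p-values measure only the spread between these samples.

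Each sample had 54512105 to 84088708 reverse-stranded counts on genes, and the first principal component separated the genotypes with 81.8% of the variance. ARID1A, the targeted gene, was checked first. Its level was 166, 178 and 177 TMM-normalized CPM (counts scaled to a common library size) in WT samples 3, 4 and 5, and 25.1, 27.5 and 25.2 in ARID1A-KO samples. ARID1A changed by -2.74 (log2 of ARID1A-KO over WT, SE 0.068, adjusted p = 9.66e-08). P-values of genes come from the quasi-likelihood test of edgeR, with the Benjamini-Hochberg method over all genes tested. Of the mesenchymal and osteoblastic markers, VIM was between 2155 and 4479 CPM and COL1A1 between 267 and 462, whereas COL1A2 was at most 0.27 CPM in any sample. ALPL, the alkaline phosphatase of bone, was lower in ARID1A-KO cells (log2 fold change -2.45, adjusted p = 0.000148). The 10 matched markers of epithelial, blood and endothelial cells were low, with EPCAM the highest at 4.3 to 7.26 CPM, PTPRC at 0.162 to 2.47 CPM and HBB at 0 in all 6 samples. Of the 6 of them with enough counts to be tested, EPCAM was called higher, and CDH1 and PTPRC lower. The call of EPCAM was lost without ARID1A-KO replicate 3 or 4 or WT replicate 4 or 5.

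In classical end joining, the Ku heterodimer (XRCC5 and XRCC6) binds the broken ends and recruits the kinase DNA-PKcs (PRKDC), nucleases and polymerases trim or fill the ends, and DNA ligase IV (LIG4) seals them together with its scaffold XRCC4. Alternative end joining uses PARP1, polymerase theta (POLQ) and DNA ligase III with XRCC1. ATM responds to DSBs and ATR with ATRIP to single-stranded DNA, and the ubiquitin ligases RNF8 and RNF168 mark the chromatin where 53BP1 (TP53BP1) and RIF1 gather.

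A gene with an adjusted p under 0.05 is called differentially expressed. By this rule 9 of the 33 genes (27.3%) were called, whereas 36.2% of all genes tested were. Called higher in ARID1A-KO cells were 4 genes, XRCC4, POLM, PARP2 and HUS1, beside 17.8% of all genes, and called lower were 5, LIG4, POLQ, ATR, TOPBP1 and RNF168, beside 18.4% of all genes. The shares of these genes called are therefore not above those of all genes. The log2 fold change was positive for 19 of the 33 genes and negative for 14, with a median of 0.034, beside 0.0066 for all genes tested. In size, the median log2 fold change was 0.15 for the 33 genes and 0.27 for all genes. The CPM of the genotypes did not overlap for 16 of the 33 genes (48.5%), and for 49.5% of all genes tested. Only LIG4 changed by 2-fold or more. DESeq2 called 10 of the genes, the same 9 and PARP1, where it called 35.1% of all genes.

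**Figure D1:**
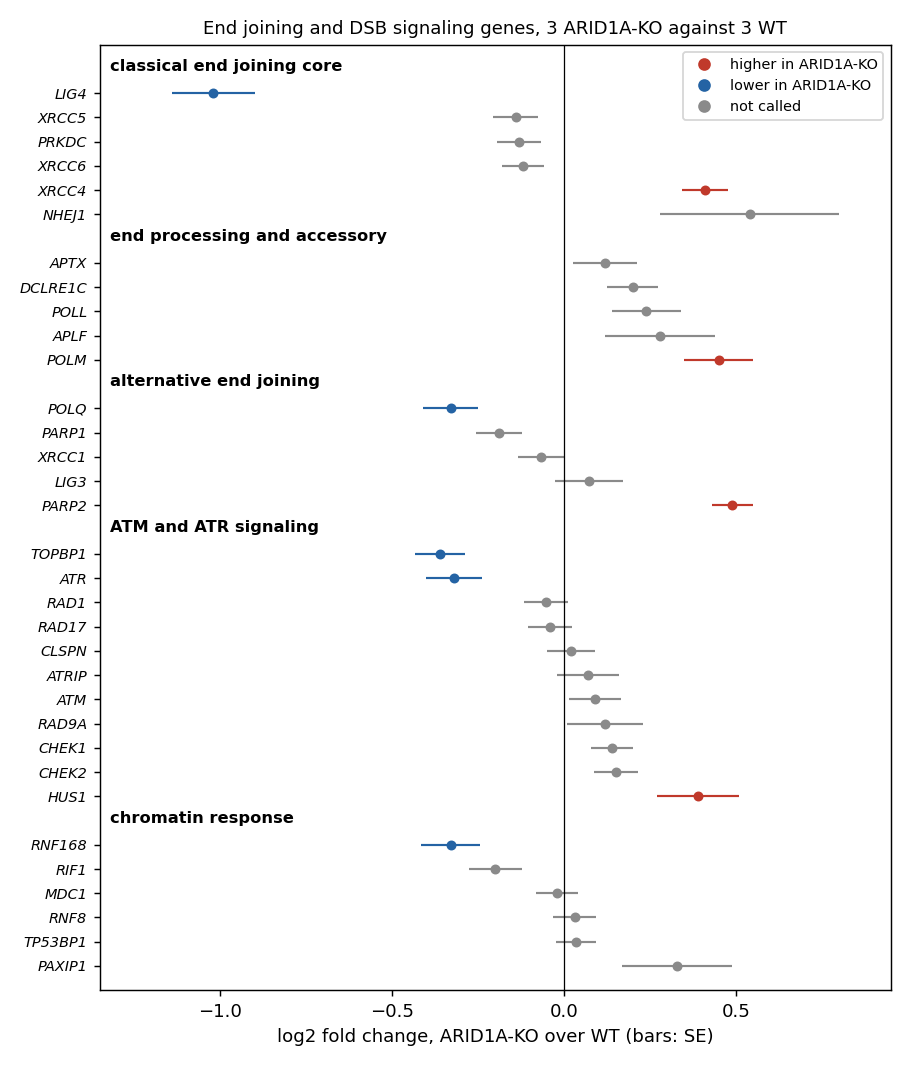
Log2 fold changes (x axis, ARID1A-KO over WT, with standard errors as bars) of the 33 genes, grouped by role (y axis) and coloured by the edgeR call. LIG4 at -1.02 stands far to the left of all others, and the 4 genes called higher lie between 0.39 and 0.49.

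In the ligation step, LIG4 and its partner XRCC4 were both called and moved in opposite directions. LIG4 (chromosome 13, 108859787 to 108870716 of GRCh37, minus strand) begins 11 bp from ABHD13, which runs the other way. The sequence before the start of LIG4, which runs into ABHD13, is shown for this reason, with that of XRCC4 and of POLM, which were higher. Each is the 250 bases before the most upstream RefSeq start in GRCh38.p14, 5′ to 3′ on the gene's own strand, at chr13:108218350-108218599 (minus strand), chr5:83077297-83077546 (plus strand) and chr7:44082531-44082780 (minus strand). Capitals mark the letters of the motifs searched for on both strands.
LIG4: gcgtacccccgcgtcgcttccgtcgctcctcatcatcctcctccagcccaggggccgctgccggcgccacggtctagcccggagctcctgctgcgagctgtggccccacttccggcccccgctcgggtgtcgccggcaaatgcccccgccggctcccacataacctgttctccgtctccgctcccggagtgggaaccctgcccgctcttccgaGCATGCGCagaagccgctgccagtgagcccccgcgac
XRCC4: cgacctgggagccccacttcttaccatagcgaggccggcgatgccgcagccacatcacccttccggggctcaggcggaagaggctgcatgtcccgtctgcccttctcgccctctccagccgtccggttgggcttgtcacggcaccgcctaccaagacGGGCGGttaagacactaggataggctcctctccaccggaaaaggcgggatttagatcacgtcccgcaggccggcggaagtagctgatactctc
POLM: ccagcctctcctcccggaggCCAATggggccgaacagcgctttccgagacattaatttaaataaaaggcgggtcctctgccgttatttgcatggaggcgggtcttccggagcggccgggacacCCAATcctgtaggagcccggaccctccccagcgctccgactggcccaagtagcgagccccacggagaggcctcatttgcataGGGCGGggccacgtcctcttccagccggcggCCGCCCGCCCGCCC
The motifs were TTTCCCGC and TTTGGCGC (E2F), GGGCGG (GC box), CCAAT (NF-Y) and GCGCATGC (NRF1), of which matches to the GC box can overlap one another. RefSeq promoters were matched for 29 of the 33 genes, and XRCC5, PRKDC, HUS1 and PAXIP1 were not matched. The window before LIG4 held 1 NRF1 match, the only one among the 29 genes (3.45%), beside 2.83% of 27305 promoters with 1 per gene. That of XRCC4 held 1 GC box, and that of POLM 4 GC box and 2 NF-Y matches. A GC box was found before 26 of the 29 genes (89.7%) and 42.2% of all promoters, and the NF-Y motif before 15 of the 29 (51.7%) and 33% of all. Neither E2F motif was found before any of the 29 genes, where 1.96% of all promoters held one. The 29 genes all had enough counts to be tested, whereas the 27305 promoters were not limited to tested genes. These shares are therefore not of like sets. A match or its absence describes only the letters in these windows.

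LIG4 had 28.7, 23.2 and 23.7 CPM in WT samples 3, 4 and 5, and 11.5, 11.4 and 14.2 CPM in ARID1A-KO samples. All ARID1A-KO samples were below all WT samples, and the mean was 0.492 times that of WT. LIG4 was thus lower (log2 fold change -1.02, SE 0.12, adjusted p = 0.000195). XRCC4 (chromosome 5, 82373317 to 82649606, plus strand) had 25.9, 25.0 and 25.2 CPM in WT and 33.7, 32.5 and 35.2 in ARID1A-KO samples. Its WT samples were close together and all below the ARID1A-KO samples (log2 fold change 0.41, SE 0.066, adjusted p = 0.00115). The ratio of LIG4 to XRCC4 counts was 1.11, 0.927 and 0.941 in WT samples and 0.341, 0.351 and 0.404 in ARID1A-KO samples. WT cells thus had about as many LIG4 as XRCC4 counts, and every ARID1A-KO sample had fewer. As for all pairs, these counts are not divided by length. Per kb of exon, WT cells had 5.71 CPM for LIG4 and 9.48 for XRCC4. The log2 ratio differed by -1.44, without overlap (two-sided exact permutation test, p = 0.1, adjusted p = 0.2 over 8 pairs of partners). With 3 samples against 3, this test gives no p below 0.1.

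The Ku subunits and DNA-PKcs, which find and hold the broken ends, did not pass the test. XRCC5 was at 656, 661 and 674 CPM in WT and at 634, 609 and 565 CPM in ARID1A-KO samples (log2 fold change -0.14, SE 0.065, adjusted p = 0.126). XRCC6 was at 740, 714 and 748 CPM in WT and at 698, 671 and 656 CPM in ARID1A-KO samples (log2 fold change -0.12, SE 0.061, adjusted p = 0.151). PRKDC was at 838, 865 and 848 CPM in WT and at 797, 806 and 735 CPM in ARID1A-KO samples (log2 fold change -0.13, SE 0.064, adjusted p = 0.157). For each of these 3 genes, the ARID1A-KO samples lay below the WT samples without overlap, with means 0.908 to 0.92 times those of WT. The ratio of XRCC5 to XRCC6 counts was 0.904 in WT and 0.892 in ARID1A-KO cells, and the samples overlapped (exact permutation test, p = 0.7, adjusted p = 0.8). NHEJ1, which encodes XLF, the partner of XRCC4, was at only 0.296 to 0.412 CPM in WT and 0.382 to 0.545 in ARID1A-KO samples (log2 fold change 0.54, SE 0.26, adjusted p = 0.134). In the annotation used, NHEJ1 lies almost entirely within the span of SLC23A3 on the same strand, so that its counts are uncertain.

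Of the 5 genes for end processing and accessory steps, all had positive log2 fold changes and 1 was called. POLM, the polymerase mu that fills ends without much template (chromosome 7, 44111846 to 44122139, minus strand), had 18.6, 23.8 and 20.2 CPM in WT and 28.7, 30.1 and 27.0 in ARID1A-KO samples. All ARID1A-KO samples were above all WT samples (log2 fold change 0.45, SE 0.10, adjusted p = 0.00632). POLL, the polymerase lambda of the same family, had a log2 fold change of 0.24 with overlapping samples (adjusted p = 0.0915). DCLRE1C, the nuclease Artemis, was at 31.5 to 37.6 CPM in WT and 39.1 to 39.6 in ARID1A-KO samples, with a log2 fold change of 0.20 that missed the threshold (adjusted p = 0.0691). APLF at 0.28 and APTX at 0.12, which bind or repair end structures, overlapped between the genotypes.

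In alternative end joining, PARP2 was called higher and POLQ lower, and the other 3 genes were not called. PARP2 (chromosome 14, 20811741 to 20826064, plus strand), which senses DNA breaks together with PARP1, had 53.0, 53.5 and 49.7 CPM in WT and 75.1, 70.6 and 73.5 in ARID1A-KO samples. The groups were well apart, at 1.4 times the WT mean (log2 fold change 0.49, SE 0.060, adjusted p = 0.000283). PARP1, the main PARP enzyme, had 438, 460 and 467 CPM in WT and 418, 407 and 372 in ARID1A-KO samples. These did not overlap either, but the log2 fold change of -0.19 missed the threshold (SE 0.067, adjusted p = 0.0526), which it passed with DESeq2 (adjusted p = 0.039). Over the 15 alternatives to the fit, the adjusted p of PARP1 ranged from 0.0117 to 0.133. POLQ (chromosome 3, 121150278 to 121264853, minus strand), the polymerase that pairs short homologies, had 76.9, 67.4 and 69.2 CPM in WT and 56.6, 52.1 and 60.8 in ARID1A-KO samples. It was lower in every ARID1A-KO sample (log2 fold change -0.33, SE 0.079, adjusted p = 0.00946). LIG3 at 0.073 and its partner XRCC1 at -0.068 were not called, and the ratio of their counts overlapped between genotypes (log2 difference 0.14, exact permutation test, p = 0.2, adjusted p = 0.32).

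**Figure D2:**
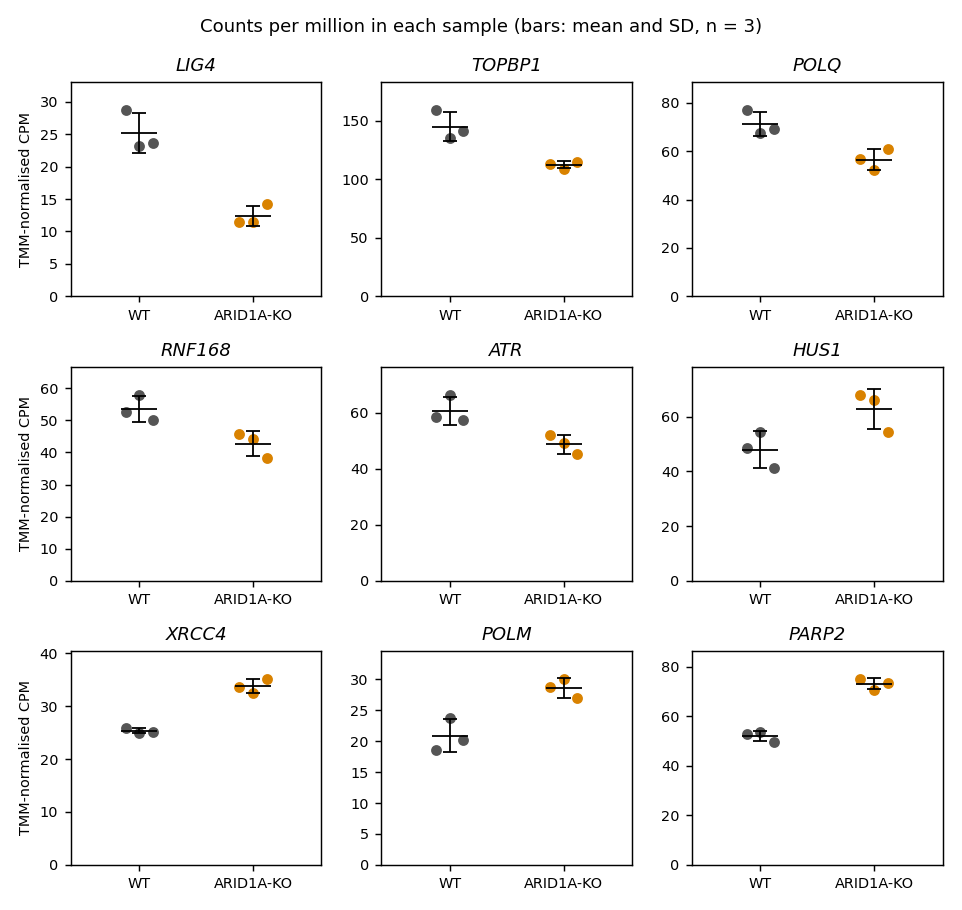
CPM (y axis, from 0) of the 9 called genes in each WT and ARID1A-KO sample (points), with the mean and SD of 3 samples. For HUS1 alone do the genotypes meet, where 1 ARID1A-KO sample at 54.4 CPM lies just below the WT sample at 54.5.

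Among the 11 genes of ATM and ATR signaling, 1 was called higher and 2 lower. ATM, the apical kinase at DSBs, was at 92.8, 89.6 and 80.1 CPM in WT and at 89.8, 89.8 and 99.8 CPM in ARID1A-KO samples, which overlapped (log2 fold change 0.09, SE 0.075, adjusted p = 0.382). ATR (chromosome 3, 142168077 to 142297668, minus strand), the kinase for single-stranded DNA, had 58.3, 66.5 and 57.3 CPM in WT and 51.9, 49.3 and 45.1 in ARID1A-KO samples. Every ARID1A-KO sample was lower (log2 fold change -0.32, SE 0.081, adjusted p = 0.0134). TOPBP1 (chromosome 3, 133317019 to 133380737, minus strand), the activator of ATR, had 159, 135 and 141 CPM in WT and 113, 109 and 115 in ARID1A-KO samples. The groups were again apart, with ARID1A-KO samples close together (log2 fold change -0.36, SE 0.072, adjusted p = 0.00395). ATRIP, which binds ATR, was not called, with a log2 fold change of 0.071 (adjusted p = 0.579). The ratio of ATRIP to ATR counts went from 0.341 to 0.447, without overlap (log2 difference 0.39, exact permutation test, p = 0.1, adjusted p = 0.2).

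The 9-1-1 clamp is the ring of RAD9A, HUS1 and RAD1 that brings TOPBP1 to ATR, and RAD17 loads it. HUS1 (chromosome 7, 47735328 to 48019178, minus strand) had 48.5, 54.5 and 41.1 CPM in WT and 68.2, 66.2 and 54.4 in ARID1A-KO samples. The samples overlapped by a narrow margin, and the log2 fold change of 0.39 passed the test (SE 0.12, adjusted p = 0.0266). This call was lost in 4 of the 6 fits that left out a sample, without ARID1A-KO replicate 3 (adjusted p = 0.0907), without ARID1A-KO replicate 4 (0.0880), without WT replicate 3 (0.0693) and without WT replicate 5 (0.0887). Over all alternatives its adjusted p ranged from 2.85e-05 to 0.0907. The annotated span of HUS1 overlaps PKD1L1 on the same strand over 61.2% of its length, and PKD1L1 had 8.83 to 11.1 CPM. RAD9A at 0.12, RAD1 at -0.052 and RAD17 at -0.041 overlapped between genotypes and were not called, and the ratio of RAD9A to HUS1 counts overlapped too (log2 difference -0.27, exact permutation test, p = 0.3, adjusted p = 0.4).

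The checkpoint kinases CHEK1 and CHEK2, which ATR and ATM activate, moved little. CHEK1 was at 48.4, 45.1 and 45.2 CPM in WT and at 51.8, 50.2 and 50.4 CPM in ARID1A-KO samples (log2 fold change 0.14, SE 0.060, adjusted p = 0.109). CHEK2 was at 28.7, 29.8 and 29.3 CPM in WT and at 32.9, 33.1 and 31.1 CPM in ARID1A-KO samples (log2 fold change 0.15, SE 0.064, adjusted p = 0.107). For both, all ARID1A-KO samples were above all WT samples, yet neither passed the test. The ratio of CHEK2 to CHEK1 counts was 0.633 in WT and 0.637 in ARID1A-KO cells, with overlap (exact permutation test, p = 0.9, adjusted p = 0.9). CLSPN, the adaptor between ATR and CHEK1, had a log2 fold change of 0.02.

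In the chromatin response, RNF168 was the one called gene of 6. RNF168 (chromosome 3, 196195654 to 196230639, minus strand), which ubiquitinates histone H2A, had 52.5, 58.1 and 50.2 CPM in WT and 45.8, 44.1 and 38.3 in ARID1A-KO samples. All ARID1A-KO samples were lower (log2 fold change -0.33, SE 0.086, adjusted p = 0.0153). RNF8, which acts before it, had a log2 fold change of 0.031, and the ratio of RNF168 to RNF8 went from 1.56 to 1.21 without overlap (log2 difference -0.36, exact permutation test, p = 0.1, adjusted p = 0.2). TP53BP1, which protects ends from resection, was at 73.2, 74.1 and 70.4 CPM in WT and at 76.1, 75.7 and 71.1 CPM in ARID1A-KO samples, which overlapped (log2 fold change 0.034, SE 0.058, adjusted p = 0.687). RIF1, its effector, was at 130, 124 and 109 CPM in WT and at 106, 99.8 and 110 CPM in ARID1A-KO samples. The samples met at WT replicate 5, and the log2 fold change of -0.20 missed the threshold (SE 0.077, adjusted p = 0.066). Without that sample it passed, with -0.27 (adjusted p = 0.0209, and between 0.0209 and 0.227 over all alternatives). The ratio of RIF1 to TP53BP1 differed by -0.23 on the log2 scale, without overlap (exact permutation test, p = 0.1, adjusted p = 0.2). The margin was narrow, with a ratio of 1.55 in WT sample 5 and 1.54 in ARID1A-KO sample 5. MDC1, the reader of γH2AX, at -0.02 and PAXIP1 at 0.33 (adjusted p = 0.141) were not called. Without a count filter PAXIP1 passed (adjusted p = 0.046), and over all alternatives its adjusted p reached 0.54.

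**Figure D3:**
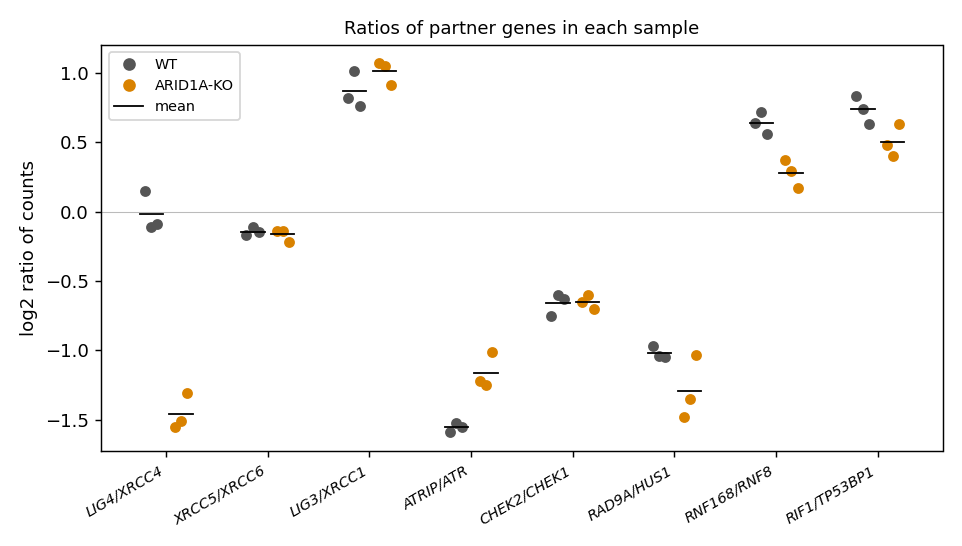
Log2 ratio of counts (y axis) of 8 pairs of partner genes (x axis) in each WT and ARID1A-KO sample (points), with the mean of 3 as a line. The genotypes did not overlap for LIG4/XRCC4, ATRIP/ATR, RNF168/RNF8 and RIF1/TP53BP1, the last by a narrow margin.

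Levels can be compared between genes only per length, here as CPM per kb of exon. In WT cells XRCC6 was highest, at 224 ± 5.36 (SD, n = 3), followed by XRCC5 at 121 ± 1.76, PARP1 at 63.4 ± 2.13 and PRKDC at 55.2 ± 0.897. In WT cells these 4 were apart by more than their SD. They held the same places in ARID1A-KO cells, where PARP1 at 55.7 ± 3.32 and PRKDC at 50.6 ± 2.52 were within their spread of each other. The next level was far lower, with TOPBP1 at 22.2 ± 1.94, MDC1 at 22.0 ± 1.11 and CLSPN at 20.6 ± 1.71, which did not differ beyond their spread. From there the levels fell without a gap to ATM at 3.92 ± 0.297, and the lowest were PAXIP1 at 0.891 ± 0.212, APLF at 0.364 ± 0.0551 and NHEJ1 at 0.108 ± 0.0213. LIG4 dropped from place 24 to place 30 of 33, from 5.71 ± 0.690 to 2.81 ± 0.365 CPM per kb. In ARID1A-KO cells only PAXIP1, APLF and NHEJ1 were below it. XRCC4 moved from place 16 to 11, from 9.48 ± 0.178 to 12.6 ± 0.503 CPM per kb, and PARP2 from place 10 to 7, from 12.7 ± 0.505 to 17.8 ± 0.563.

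**Figure D4:**
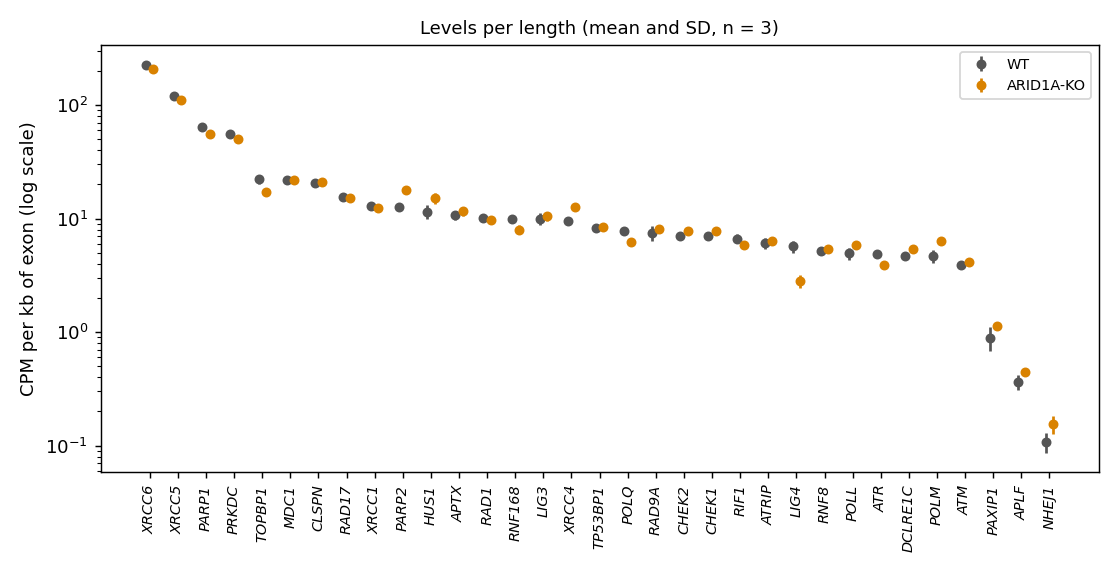
CPM per kb of exon (y axis, log scale) of the 33 genes in the order of their WT level (x axis), as mean and SD of 3 WT and 3 ARID1A-KO samples. The values run from 224 for XRCC6 to 0.108 for NHEJ1 in WT cells, and LIG4 is the gene with the widest gap between genotypes among the well-counted ones.

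Position on the chromosome was looked at next, for genes chosen by name but with earlier results of these data known. POLQ, TOPBP1, ATR and RNF168, 4 of the 5 genes called lower, lie on chromosome 3 beyond 90 Mb. Of the 572 tested genes beyond 90 Mb of that chromosome, 301 (52.6%) were called lower and 34 higher, with a median log2 fold change of -0.37. Of the 516 genes up to 90 Mb, 76 (14.7%) were called lower, with a median of -0.0069. ATRIP, the fifth gene of the group on chromosome 3, lies up to 90 Mb and was not called. These steps along chromosome 3, and the border, were chosen after the values were seen. On other chromosomes, 5 of 28 genes were called (17.9%), beside 35.8% of all genes tested there.

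Each gene was also set beside its neighbours, the other tested genes with a start within 5 Mb. The median log2 fold change of the 70 neighbours of POLQ was -0.43, and 58 of them were negative. For TOPBP1 the median was -0.44 (66 of 70 negative), for ATR -0.49 (36 of 40) and for RNF168 -0.26 (49 of 70). The median for LIG4 was -0.61, with 21 of 23 negative. PARP2 had neighbours with a median of 0.32, with 101 of 123 positive. Around the other genes called higher the medians were near 0, with -0.084 for XRCC4, 0.014 for POLM and 0.013 for HUS1. Thus the 5 genes called lower and PARP2 moved in the direction of their neighbours' median, whereas XRCC4, POLM and HUS1 rose where it was near 0. RNA counts do not show DNA copy number, whose part in these values was not tested.

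**Figure D5:**
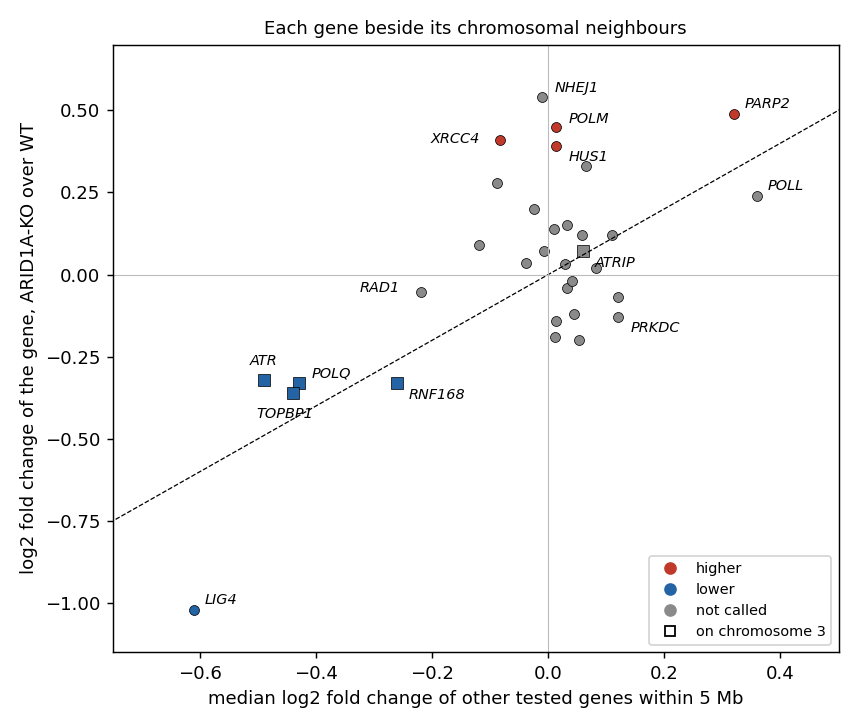
Log2 fold change of each of the 33 genes (y axis) against the median of its neighbours within 5 Mb (x axis), with squares for chromosome 3 and a dashed line where both are equal. POLQ, TOPBP1, ATR and RNF168 lie close to the line at the lower left, whereas XRCC4, POLM and HUS1 lie near 0 on the x axis.

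With the median of the neighbours within 5 Mb taken off each gene, 7 of the 33 genes were called, beside 32.1% of all genes. XRCC4 (log2 fold change 0.50, adjusted p = 0.00054), POLM (0.44, adjusted p = 0.00882), HUS1 (0.38, adjusted p = 0.0342) and LIG4 (-0.42, adjusted p = 0.0244) were called as before. PARP2 at 0.17 (adjusted p = 0.0564) and RNF168 at -0.072 (adjusted p = 0.559) were no longer called. POLQ, ATR and TOPBP1 turned to 0.10, 0.17 and 0.075, none of them called. PRKDC at -0.24, PARP1 at -0.20 and RIF1 at -0.26 became called. The neighbour median entered as a fixed value, so adjusted p-values with an offset leave out the uncertainty of that median, which was not measured. Windows of 2 and 10 Mb, chosen after seeing the data, called 8 and 9 of the genes, beside 32.7% and 32.8% of all genes. With 2 Mb, TOPBP1 passed in the opposite direction, higher by 0.24 (adjusted p = 0.0301, and between 1.97e-05 and 0.463 over all alternatives), as did RAD1 at 0.20, which was at -0.052 and not called without an offset. PRKDC, with 14 neighbours within 5 Mb and 10 within 2 Mb, was at -0.63 with 2 Mb (adjusted p = 0.000133) and -0.12 with 10 Mb (0.197). Its adjusted p reached 0.308 over all alternatives. Called only with 10 Mb or when a sample was left out was DCLRE1C (0.29), and only with 10 Mb XRCC1 (-0.21), ATM (0.23) and CHEK1 (0.18). In both windows, XRCC4, POLM and HUS1 were called higher, and LIG4 was not called (-0.034, adjusted p = 0.854, with 2 Mb, and -0.31, adjusted p = 0.0707, with 10 Mb). Over all alternatives, the adjusted p ranged from 2.29e-20 to 0.854 for LIG4, from 3.06e-06 to 0.00627 for XRCC4, from 4.05e-05 to 0.0307 for POLM and from 1.02e-09 to 0.0564 for PARP2. For RNF168 it ranged from 0.00041 to 0.64.

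Of the 3 genes nearest to LIG4, looked up after its values were seen, ABHD13 and FAM155A were lower too and MYO16 was not called. ABHD13, the head-to-head neighbour, had 21.0, 20.8 and 18.6 CPM in WT and 10.1, 10.1 and 10.3 in ARID1A-KO samples (log2 fold change -0.99, SE 0.082, adjusted p = 3.09e-05). FAM155A, whose start lies 351633 bp away, had a log2 fold change of -1.28 (adjusted p = 0.000101). MYO16, 377784 bp away, was at -0.34 and not called (adjusted p = 0.115). All 5 tested neighbours within 2 Mb were negative, with a median of -0.99.

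Other genes of these pathways were counted from a list of 38, of which 37 were found and 36 tested. Called higher were 3 and called lower 6, together 25%, beside 36.2% of all genes. Higher were ABRAXAS1, the scaffold of the BRCA1-A complex at ubiquitinated chromatin (log2 fold change 0.64, SE 0.071, adjusted p = 0.000159), WEE1, the kinase that holds CDK1 inactive (0.33, adjusted p = 0.00262), and TIPIN, a partner of TIMELESS at forks (0.23, adjusted p = 0.0363). The call of TIPIN was lost in 4 of the 6 fits that left out a sample, without ARID1A-KO replicate 3 or 4 or WT replicate 4 or 5, and over all alternatives its adjusted p reached 0.125. Among those lower were BABAM1, another subunit of BRCA1-A (-0.93, SE 0.082, adjusted p = 4.23e-05), and RNF169, which binds the mark made by RNF168 (-0.39, SE 0.056, adjusted p = 0.000697). ABRAXAS1 and BABAM1 thus moved in opposite directions within 1 complex. Of its other subunits in the list, BABAM2 was called lower (-0.23, adjusted p = 0.0252), a call lost in 4 of the 6 fits that left out a sample. UIMC1 at -0.063 and BRCC3 at -0.02 were not called. The neighbours of BABAM1 had a median of -0.36, whereas those of ABRAXAS1 and RNF169 were at -0.084 and -0.035. None of the 7 tested genes of the end joining group of this list was called, among them PAXX (0.15, adjusted p = 0.173). There were also 0 at an unadjusted p under 0.05 in edgeR, a share not counted over all genes. DESeq2 called 0 as well, where it called 35.1% of all genes. With only 7 genes, these counts are no test of the group.

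Several genes of ATR signaling are used mostly by cells in S phase, so 12 proliferation genes were counted beside them. None was called higher and 3 were called lower, CCNE2 (log2 fold change -0.66, adjusted p = 0.000485), MCM2 (-0.47, adjusted p = 0.000262) and CCNA2 (-0.28, adjusted p = 0.00458), and the median of the 12 was -0.16. Called were thus 25% of the 12 genes, beside 36.2% of all genes tested, and 18.4% of all genes were called lower. At an unadjusted p under 0.05 in edgeR 0 were higher and 4 lower, a share not counted over all genes. DESeq2 called 0 higher and 3 lower, where it called 35.1% of all genes. MCM2 has neighbours with a median of -0.41, and with these taken off it was at -0.059 and not called. MKI67 at -0.14, TOP2A at -0.18 and PCNA at 0.10 were not called. In bulk samples, fewer cells in S phase and less RNA per cell cannot be told apart, and the part of the cell cycle in the values of POLQ, TOPBP1 or the other genes was not tested.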

How the data were processed

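Counts of 3 WT and 3 ARID1A-KO samples were analysed. The authors aligned paired reads of 100 bp with STAR (GRCh37, Roddy workflow). They counted reads per gene with featureCounts and deposited these counts as whole numbers, not normalized. The deposited FPKM and TPM columns were not used. Reverse-stranded counts were taken, since forward counts were 5.83% to 6.15% of them. The kit is for stranded total RNA, whereas the labels give polyA RNA.

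After filterByExpr and TMM normalization, 19599 genes were tested in edgeR 4.0.16 (R 4.3.3) without covariates, using all 6 samples. The common biological coefficient of variation was 0.111. At 54512105 counts or more per sample, counting error matters mainly for NHEJ1 and APLF. Samples of a genotype differed by more than sampling noise. Ratios of partners were tested by exact permutation in SciPy 1.17.1 under Python 3.11.15. For the neighbour analysis, the median log2 fold change of other tested genes starting within 5 Mb entered as a fixed offset of ARID1A-KO samples. CPM were divided by exonic length for levels.

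The members and lists were chosen with earlier results of these data known. Named are ARID1A, all members, those called or central with values, and up to 3 of the largest called changes in each direction of the other lists, of which some are not reported here. Alternatives were DESeq2 1.42.0, RLE normalization, unstranded counts, no filter or at least 10 counts in every sample, a replicate block, an adjusted p under 0.01, neighbour offsets and each sample left out. The fits were tested on simulated data beforehand. There, 50 of 19599 genes were changed at each of the log2 fold changes 0.5, 1, 1.5 and 2. Of the calls at an adjusted p under 0.05, 14 of 194 in edgeR and 38 of 227 in DESeq2 were false. In the data here 36.2% of genes were called, so these shares do not give the error of the calls here.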

Additional observations from a re-analysis of the deposited data

How the results depend on the processing

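Of the 9 called genes, XRCC4 and POLM kept their call and direction in all 15 alternative fits, and LIG4, PARP2, POLQ, ATR, TOPBP1 and RNF168 in the 12 that took off no neighbour median. At an adjusted p under 0.01, 3 of the 33 genes were called lower (LIG4, POLQ and TOPBP1), where 12.1% of all genes were. The 2 Mb offset called 3 other genes lower, PRKDC, PARP1 and RIF1. The 10 Mb offset called 2 others lower, PARP1 and XRCC1, and 7 higher. Signs turned with the offsets of 5, 10 and 2 Mb in POLL (-0.12, -0.12 and -0.18), POLQ (0.10, 0.084 and 0.056), ATR (0.17, 0.16 and 0.13), TOPBP1 (0.075, 0.075 and 0.24), CLSPN (-0.063, -0.089 and -0.074) and RAD1 (0.17, 0.037 and 0.20). RNF8 turned to -0.0017 with 10 Mb and -0.014 with 2 Mb, and RAD9A to -0.045 with 2 Mb. By construction, an offset takes off what a gene shares with its neighbours. With samples left out in turn, LIG3 ranged from -0.0036 to 0.17, CLSPN from -0.03 to 0.078, MDC1 from -0.063 to 0.0088, and the ARID1A-KO minus WT difference in the log2 ratio of XRCC5 to XRCC6 from -0.034 to 0.0062 and of CHEK2 to CHEK1 from -0.038 to 0.04. DCLRE1C was called without WT replicate 3 (0.26) and POLL without WT replicate 4 (0.33). With the replicate block, 10 genes were called, the same 9 and POLL, and no call was lost. Without a count filter 11 were called, the same 9, RIF1 and PAXIP1. Deviations of samples with the same number correlated at -0.245, 0.504 and 0.329, so that the numbers are not taken to pair the samples, and not every sample correlated best with its own number. At 3 samples a group, a gene that was not called may still differ, and NHEJ1 and APLF had the fewest counts.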
